A study of Mus musculus with 6 samples.

Results

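Superoxide dismutases and antioxidant enzymes were examined as 10 genes in RNA of the newborn mouse cerebellum. They were taken from the deposited table by gene symbol: Sod1, Sod2, Sod3, Cat, Gpx1, Gpx4, Prdx1, Prdx2, Nqo1 and Hmox1. All 10 symbols were found, each as 1 locus of its own among the 23793 loci, and all 10 reached 1 FPKM (fragments scaled to transcript length and library size) in at least 3 of the 6 libraries. The series compared 3 conditional knockout (cKO) libraries of genotype Zeb2 f/f with hGFAP-cre, with 3 control libraries of genotype Zeb2 f/+ with hGFAP-cre, all from postnatal day 0. Every library therefore carried the Cre transgene, and the controls already had 1 floxed Zeb2 allele. In hGFAP-cre mice a human GFAP promoter drives Cre in radial glia and their descendants, whereas the RNA came from the whole cerebellum with all its cell types. The 10 genes were chosen by symbol with their FPKM in cKO and control already known, around Sod3, which was among the loci that differed most, and with the question whether Sod3 moved alone. Differences between cKO and control in these 10 genes are therefore given as descriptions, and no test of them is used as support.

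Superoxide dismutases convert superoxide into hydrogen peroxide, and catalase, glutathione peroxidases and peroxiredoxins remove the peroxide. Sod1 is the copper and zinc enzyme of the cytosol, Sod2 the manganese enzyme of mitochondria, and Sod3 a secreted copper and zinc enzyme that binds heparan sulfate in the extracellular matrix. Nqo1 and Hmox1 belong to the genes induced by the transcription factor Nrf2 through antioxidant response elements. In brain, astroglia are known for a strong antioxidant programme, and Sod3 is made in vessel walls and fibroblasts as well as in neural tissue.

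RefSeq promoter windows (GRCm38.p6) were at hand for 8 of the 10 genes, Sod3 and Hmox1 aside. The core of the antioxidant response element, TGACNNNGC, was searched on both strands of 300 bases around the annotated start, and was found in the windows of 2 genes, Sod1 and Prdx1. Of 32851 windows of that length, 12.4% held it. The sequences that follow give the 250 bases before the start, 5′ to 3′ on the strand of the gene, with the core in capitals. Nqo1, the gene besides Sod3 whose groups did not overlap, is shown beside the 2 genes that hold the core.
Sod1 (chr16:90220512-90220761, plus strand): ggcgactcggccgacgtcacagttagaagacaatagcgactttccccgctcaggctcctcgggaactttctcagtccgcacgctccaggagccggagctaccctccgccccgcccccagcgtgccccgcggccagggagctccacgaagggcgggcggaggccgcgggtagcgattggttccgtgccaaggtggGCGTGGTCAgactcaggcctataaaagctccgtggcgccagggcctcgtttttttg
Prdx1 (chr4:116685349-116685598, plus strand): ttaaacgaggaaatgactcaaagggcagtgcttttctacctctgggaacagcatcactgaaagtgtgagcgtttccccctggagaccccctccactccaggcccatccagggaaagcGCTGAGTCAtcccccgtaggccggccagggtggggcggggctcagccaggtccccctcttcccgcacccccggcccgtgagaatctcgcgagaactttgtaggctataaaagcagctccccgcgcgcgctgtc
Nqo1 (chr8:107403206-107403455, minus strand): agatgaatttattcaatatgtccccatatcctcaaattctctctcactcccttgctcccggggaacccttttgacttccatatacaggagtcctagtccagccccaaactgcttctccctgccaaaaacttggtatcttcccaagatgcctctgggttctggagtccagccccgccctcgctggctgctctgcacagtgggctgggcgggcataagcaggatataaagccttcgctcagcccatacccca
The core lay at -56 in Sod1 and at -133 in Prdx1, counted from the annotated start, in both cases as its reverse complement GCNNNGTCA. The letters were not found in the Nqo1 window. Sequence more than 250 bases before the start was not searched in any gene, so elements farther upstream would be missed. The E2-box CACCTG, which Zeb factors bind, was present in 20.2% of all windows and in 1 of the 4 windows of Gpx4, and in none of the other members' windows.

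The libraries differed in ways that bear on every value given here. Zeb2 itself was at 6.19, 3.89 and 5.81 FPKM in cKO 1 to 3 and at 11.4, 9.52 and 7.995 FPKM in controls 1 to 3, so all cKO libraries lay lower (exact two-sided permutation p = 0.1, the smallest that 3 against 3 can give). Xist stood at 144 ± 3.05 FPKM in cKO and 0.394 ± 0.105 FPKM in controls (SD, n = 3 each), while Y-linked genes were expressed in the controls, so a difference by genotype and one by sex cannot be told apart here. All 9 markers of cerebellar neurons and progenitors were expressed, with a sum of 691 to 722 FPKM in cKO and 699 to 777 FPKM in controls. None of the 9 passed limma over all loci, and their median log2 fold change was -0.096. Foxp2 and Skor2 were higher and Atoh1 and Pax6 lower in cKO at an unadjusted p under 0.05 by limma. Of all tested loci, 7.82% were higher and 9.79% lower by that rule. The library cKO 3 stood apart, with a score of -3.48 along principal component 1 (29.5% of variance), against -28.2 and -29.0 for cKO 1 and cKO 2 and 15.5 to 26.2 for the controls. Library sums lay between 497542 FPKM (cKO 1) and 524474 FPKM (control 1), with read numbers not given in the sources used here. Separate animals are not named in the labels, so p-values refer to library-to-library spread, which may be technical.

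Sod3 (XLOC_015586; GRCm38 chromosome 5, 52363791 to 52371418, plus strand) was about 4 times as abundant in cKO. It was measured at 12.6, 11.1 and 10.2 FPKM in cKO 1, 2 and 3, against 1.68, 2.34 and 4.36 FPKM in controls 1, 2 and 3. Every cKO value lay above every control value, and the highest control was below the lowest cKO library. The means were 11.3 ± 1.21 FPKM in cKO and 2.79 ± 1.39 FPKM in controls (SD, n = 3 each), a ratio of 4.03. The log2 fold change of FPKM + 1 was 1.75 (SE 0.24), the 42nd from the top among 13612 tested loci, and 0.683% of those loci had a larger change in either direction. The spread was unequal between the groups. The highest cKO library held 1.24 times the Sod3 level of the lowest, and the highest control held 2.59 times that of the lowest.

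The size of the Sod3 difference depended on which libraries were set against each other. The sample records fall into 2 accession ranges with labels of different form, taken here as 2 rounds of deposit (replicates 1 and 2, then replicate 3). No label names a processing batch, but the spacing of low values, compared between pairs of libraries, was alike in cKO 3 and control 1 and alike in the other 4 libraries, and these are called processing sets here as an inference from the values. In the first round the log2 difference was 2.10 (2 cKO and 2 controls) and in the second it was 1.06 (1 of each). Within the larger processing set it was 1.60 (2 cKO and 2 controls), and between cKO 3 and control 1 it was 2.06. Without cKO 3 the log2 fold change was 1.82. In each of these comparisons Sod3 was higher in cKO.

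**Figure D1:**
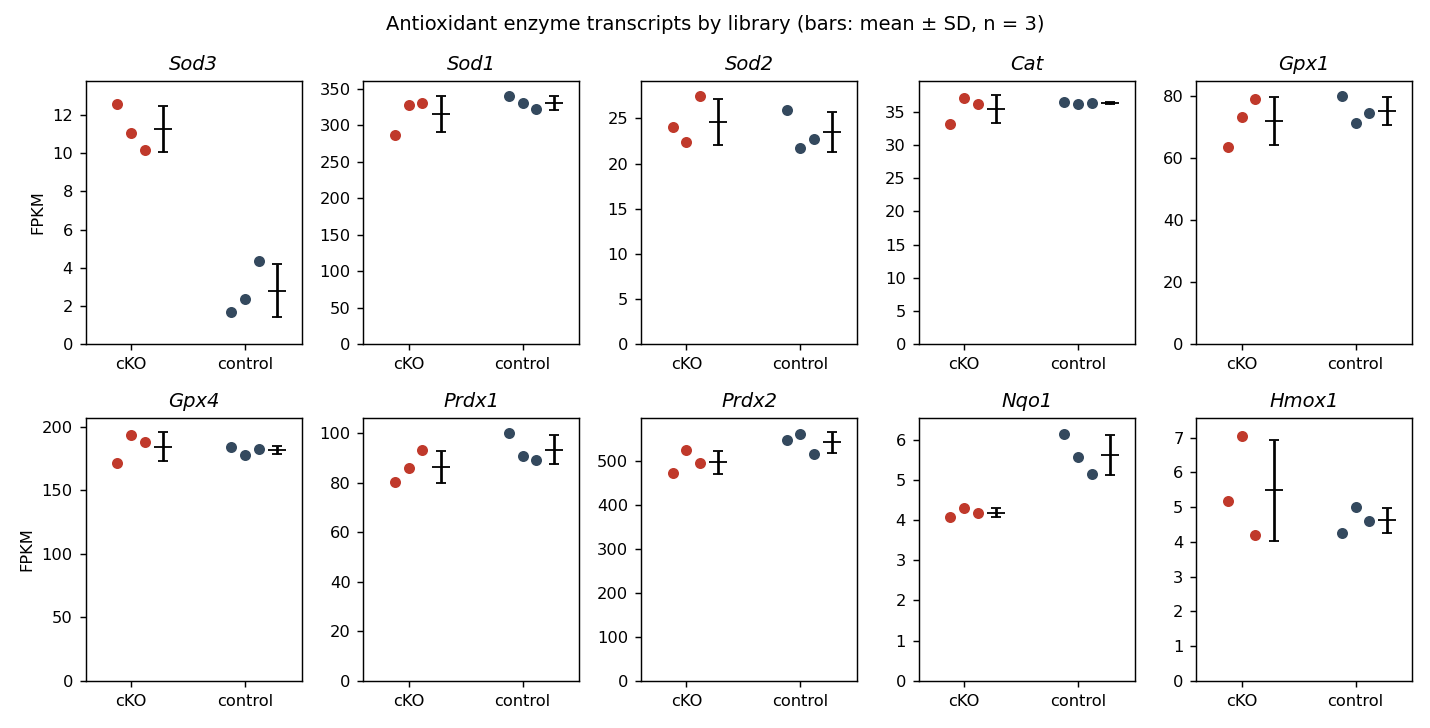
FPKM of each of the 10 genes (vertical axes, starting at 0) in the 3 cKO libraries and the 3 control libraries, 1 point per library in the order of the replicate numbers, with the mean and SD beside the points. Sod3 lies at 10.2 to 12.6 FPKM in cKO and at 1.68 to 4.36 FPKM in controls, Nqo1 lies at 4.08 to 4.29 FPKM in cKO and 5.14 to 6.13 FPKM in controls, and the groups of the other 8 genes overlap.

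The intracellular superoxide dismutases did not show this separation. Sod1 (XLOC_007935; GRCm38 chromosome 16, 90220754 to 90226329, plus strand) was at 287, 328 and 331 FPKM in cKO 1 to 3 and at 341, 331 and 322 FPKM in controls 1 to 3. The groups overlapped, and the lowest value was that of cKO 1 (log2 fold change -0.07, SE 0.08). Sod2 (XLOC_008417; GRCm38 chromosome 17, 13006846 to 13040063, plus strand) was at 24.04, 22.4 and 27.4 FPKM in cKO 1 to 3 and at 25.9, 21.7 and 22.7 FPKM in controls 1 to 3. Both groups covered much the same range for Sod2 (log2 fold change 0.07, SE 0.09), and its sign was negative in 2 of the 19 alternative fits.

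Because Sod1 was so abundant, Sod3 made up a small part of superoxide dismutase transcript in either group. Sod3 was 3.89, 3.07 and 2.76% of the summed FPKM of Sod1, Sod2 and Sod3 in cKO 1 to 3, and 0.456, 0.660 and 1.25% in controls 1 to 3. The sum itself was 351 ± 24.3 FPKM in cKO and 357 ± 10.1 FPKM in controls (SD, n = 3 each), a difference smaller than either spread. Against Sod2, the scarcer of the intracellular enzymes, Sod3 stood at 46.3 ± 8.12% in cKO and 12.2 ± 6.48% in controls. The ratio of Sod1 to Sod2 was 12.9 ± 1.54 in cKO and 14.2 ± 1.04 in controls.

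Enzymes that remove hydrogen peroxide differed little. Cat, catalase of peroxisomes (XLOC_012396; GRCm38 chromosome 2, 103453849 to 103485160, minus strand), was at 33.1, 37.1 and 36.2 FPKM in cKO 1 to 3 and at 36.4, 36.2 and 36.3 FPKM in controls 1 to 3. The 3 controls were almost equal for Cat, and cKO libraries lay on both sides of them (log2 fold change -0.03, SE 0.05). Gpx1, the glutathione peroxidase of cytosol and mitochondria, averaged 71.8 ± 7.78 FPKM in cKO and 75.2 ± 4.40 FPKM in controls (SD, n = 3 each). Gpx4, which reduces lipid peroxides in membranes and protects cells from ferroptosis, averaged 184 ± 11.6 FPKM in cKO and 182 ± 3.27 FPKM in controls. Their log2 fold changes were -0.07 (SE 0.09) for Gpx1 and 0.02 (SE 0.06) for Gpx4, and in both genes cKO 1 held the lowest value.

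The peroxiredoxins, which reduce peroxides through reactive cysteines, were the most abundant of the peroxide enzymes with Gpx4. Prdx2 (XLOC_020534; GRCm38 chromosome 8, 84969587 to 84974834, plus strand) was at 473, 525 and 496 FPKM in cKO 1 to 3 and at 549, 563 and 518 FPKM in controls 1 to 3. Of the cKO libraries 2 lay under all controls, and cKO 2 lay above control 3 (log2 fold change -0.13, SE 0.07). Prdx1 was at 80.3, 86.2 and 93.1 FPKM in cKO 1 to 3 and at 100.3, 90.9 and 89.1 FPKM in controls 1 to 3, again with overlap (log2 fold change -0.11, SE 0.07). Both had negative log2 fold changes in all 19 alternative fits, between -0.16 and -0.081 for Prdx2 and between -0.20 and -0.058 for Prdx1.

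Nqo1, a quinone reductase, was the other gene whose groups did not overlap, and it was lower in cKO. Nqo1 (XLOC_021207; GRCm38 chromosome 8, 107388225 to 107403206, minus strand) was at 4.08, 4.29 and 4.17 FPKM in cKO 1 to 3, against 6.13, 5.58 and 5.14 FPKM in controls 1 to 3. The cKO libraries were close together and all under the lowest control. The means of 4.18 ± 0.108 FPKM in cKO and 5.62 ± 0.495 FPKM in controls put cKO at 74.4% of control (log2 fold change -0.35, SE 0.07), and 6.26% of tested loci had a larger change in either direction. The log2 difference was -0.40 in the first round of deposit, -0.25 in the second, -0.29 in the larger processing set and -0.46 in the smaller, and -0.35 without cKO 3.

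Hmox1, the inducible enzyme that breaks down haem, varied most among cKO libraries. Hmox1 (XLOC_020481; GRCm38 chromosome 8, 75093621 to 75100589, plus strand) was at 5.18, 7.06 and 4.21 FPKM in cKO 1 to 3 and at 4.27, 4.99 and 4.59 FPKM in controls 1 to 3. The value of cKO 2 was the highest and that of cKO 3 the lowest of all 6 (log2 fold change 0.19, SE 0.16). Without cKO 2 the log2 fold change was 0.017.

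**Figure D2:**
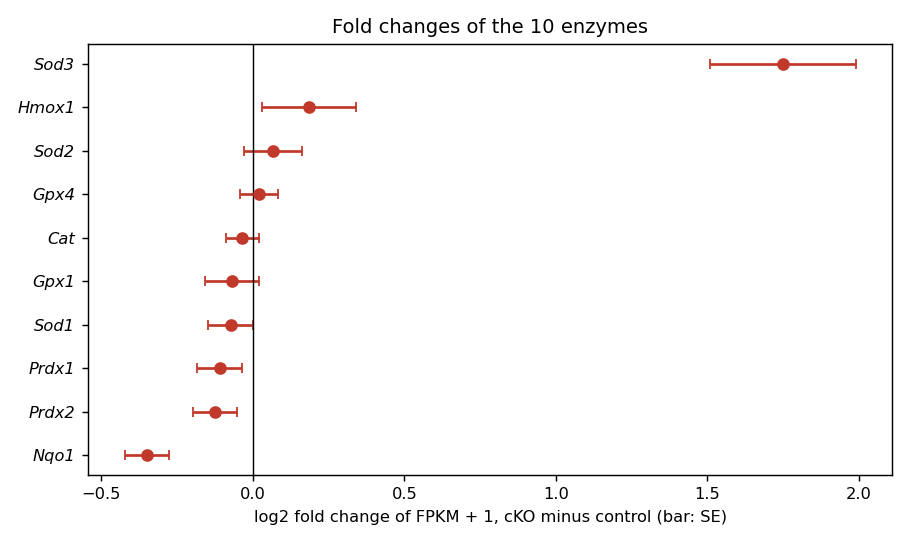
Log2 fold change of FPKM + 1 (horizontal axis, cKO minus control, 3 libraries each) of the 10 genes, with bars of 1 SE. Sod3 lies at 1.75 and Nqo1 at -0.35, and the other 8 lie between -0.13 and 0.19.

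Set side by side, 1 of the 10 genes was higher and 1 lower in cKO without overlap of the groups, Sod3 and Nqo1, where 23.9% of all tested loci had groups that did not overlap (10.3% higher and 13.6% lower). In limma fitted to all 13612 loci, Sod3 was the 1 member of the 10 with a Benjamini-Hochberg adjusted p of at most 0.05, as had 0.573% of all loci tested (0.242% higher and 0.331% lower). Since this contrast chose Sod3, nothing is read from that count, which was 0 in each fit that left out cKO 1, cKO 2, cKO 3, control 1 or control 2. The 9 genes other than Sod3 had a median log2 fold change of -0.07, against -0.0095 over all tested loci. Their summed level was 1225 ± 73.3 FPKM in cKO and 1294 ± 36.9 FPKM in controls (SD, n = 3 each). Of the 10 genes, 7 had their lowest value of all libraries in cKO 1, the library with the lowest FPKM sum, and without cKO 1 the median of the 9 was 0.012. The differences between Sod3 and the other members were not tested.

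The levels of the 10 genes, which FPKM makes comparable between genes of different length, kept nearly the same order in both groups. Averaged over the 6 libraries, Prdx2 (520.5 FPKM) stood first, followed by Sod1 (323), Gpx4 (183), Prdx1 (90.0), Gpx1 (73.5), Cat (35.9) and Sod2 (24.04), and no neighbours among these 7 overlapped in any library. Sod3, Hmox1 and Nqo1 came last, at means over the 6 libraries of 7.03, 5.05 and 4.90 FPKM, and overlapped with each other. Sod3 was the 8th of the 10 by its mean in cKO and the 10th in controls, and Nqo1 was the 10th in cKO and the 8th in controls. Across the 6 libraries the coefficient of variation was 68.1% for Sod3, 20.9% for Hmox1, 17.3% for Nqo1 and 3.89 to 9.31% for the other 7. Sod1 overlaps Scaf4, and Prdx2 overlaps Rnaseh2a and Junb, all on the opposite strand, so without a stated strand setting their reads cannot be told apart at the overlaps. The rule for assigning reads shared with pseudogenes such as Gpx4-ps2 was not stated.

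The rest of the antioxidant system was described with 6 lists of 96 genes, of which 85 passed the filter. None of the 85 passed limma over all loci (adjusted p at most 0.05, against 0.573% of all loci). Before adjustment 8 were higher and 4 lower in cKO at p under 0.05, beside 7.82% and 9.79% of all tested loci. The groups did not overlap in 10 of the 85 (higher in cKO) and in 3 (lower in cKO), beside 10.3% and 13.6% of all tested loci. The median log2 fold change was 0.0051, with 45 above and 40 below 0. With the 234 loci of small RNAs left out of the fit, 2 of the 85 passed, both higher in cKO, Slc7a11 and Ephx1, beside 2.47% of all loci in that fit (0.957% higher and 1.51% lower).

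Genes that supply copper to the dismutases did not pass limma in either direction (0 of 8, 1 at unadjusted p under 0.05, median log2 fold change 0.03). Atox1, the chaperone that feeds the secretory pathway where Sod3 is loaded, averaged 81.5 ± 10.04 FPKM in cKO and 78.4 ± 5.83 FPKM in controls (SD, n = 3 each). Ccs, the chaperone of Sod1, averaged 15.5 ± 0.544 FPKM in cKO and 15.4 ± 1.83 FPKM in controls. The 3 with the smallest p were Slc31a2, a copper transporter (log2 fold change -0.20), Atp7b, a copper pump (0.23), and Commd1 (-0.17), with limma adjusted p of 0.281, 0.34 and 0.47.

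Among 23 tested genes of glutathione and the other glutathione peroxidases, Slc7a11, the cystine transporter that limits glutathione synthesis, had the largest difference. It was at 2.65, 3.36 and 3.05 FPKM in cKO 1 to 3 and at 1.68, 1.31 and 1.80 FPKM in controls 1 to 3. All cKO libraries lay above all controls (log2 fold change 0.63, SE 0.11), with a limma adjusted p of 0.0664, and of 0.0267 with small-RNA loci left out (0.0267 to 0.224 over the alternative fits). Its partner Slc3a2 averaged 67.6 ± 3.86 FPKM in cKO and 61.1 ± 1.79 FPKM in controls (adjusted p = 0.266 by limma). Oplah, 5-oxoprolinase of the glutathione cycle, and Ggt7, of the gamma-glutamyltransferase family, had log2 fold changes of 0.25 and 0.12 (limma adjusted p = 0.134 and 0.24). The rate-limiting ligase Gclc averaged 16.2 FPKM in cKO and 16.6 FPKM in controls, and the list median was 0.0051. None of the 23 passed over all loci, and 4 higher and 1 lower had an unadjusted p under 0.05 by limma, beside the shares of 7.82% and 9.79% over all loci, which apply to each list.

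Of 20 Nrf2 regulators and targets, none passed limma over all loci, and 3, all higher in cKO, had an unadjusted p under 0.05 (median log2 fold change 0.03). Nfe2l2, which encodes Nrf2, was at 5.12 ± 1.14 FPKM in cKO and 4.77 ± 1.15 FPKM in controls, and its inhibitor Keap1 at 19.2 ± 1.25 FPKM in cKO and 18.7 ± 1.13 FPKM in controls (SD, n = 3 each). Ephx1, the microsomal epoxide hydrolase, was at 4.57, 5.33 and 4.45 FPKM in cKO 1 to 3 and at 2.90, 3.23 and 3.40 FPKM in controls 1 to 3. Its groups did not overlap (log2 fold change 0.47, SE 0.09), with a limma adjusted p of 0.074, and of 0.0359 with small-RNA loci left out (0.0359 to 0.247 over the alternative fits). Me1, a malic enzyme that makes NADPH, averaged 26.5 ± 0.979 FPKM in cKO and 21.9 ± 1.10 FPKM in controls (limma adjusted p = 0.0905), and Maff, a small Maf partner of Nrf2, had a log2 fold change of 0.35 (adjusted p = 0.279).

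Of 18 other peroxiredoxin and thioredoxin genes, none passed limma, and 1, lower in cKO, had an unadjusted p under 0.05 (median log2 fold change -0.016). Prdx4, the peroxiredoxin of the endoplasmic reticulum, lies on the X chromosome and was at 44.3 ± 2.51 FPKM in cKO and 53.2 ± 3.65 FPKM in controls (log2 fold change -0.26, limma adjusted p = 0.144). Txnip, which binds and inhibits thioredoxin, and Txnrd1, the cytosolic thioredoxin reductase, had log2 fold changes of 0.42 and -0.12 (limma adjusted p = 0.315 and 0.333). Of 8 genes of selenoprotein synthesis and selenium supply, on which Gpx1 and Gpx4 depend, none passed limma, and 1 higher and 1 lower had an unadjusted p under 0.05 (median log2 fold change 0.0016). Selenop, the selenium carrier listed as Sepp1 in the table, was at 61.1 ± 3.48 FPKM in cKO and 49.1 ± 3.15 FPKM in controls without overlap (log2 fold change 0.31, limma adjusted p = 0.0946), and Eefsec and Secisbp2 had log2 fold changes of -0.15 and -0.13. Of 17 sources of superoxide and peroxide, 8 passed the filter and none passed limma, also before adjustment (0 at p under 0.05). Cybb, the catalytic subunit of the phagocyte NADPH oxidase, averaged 0.057 FPKM in cKO and 0.0294 FPKM in controls. Rac2, Nox1 and Maoa had log2 fold changes of 0.18, 0.08 and -0.09.

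**Figure D3:**
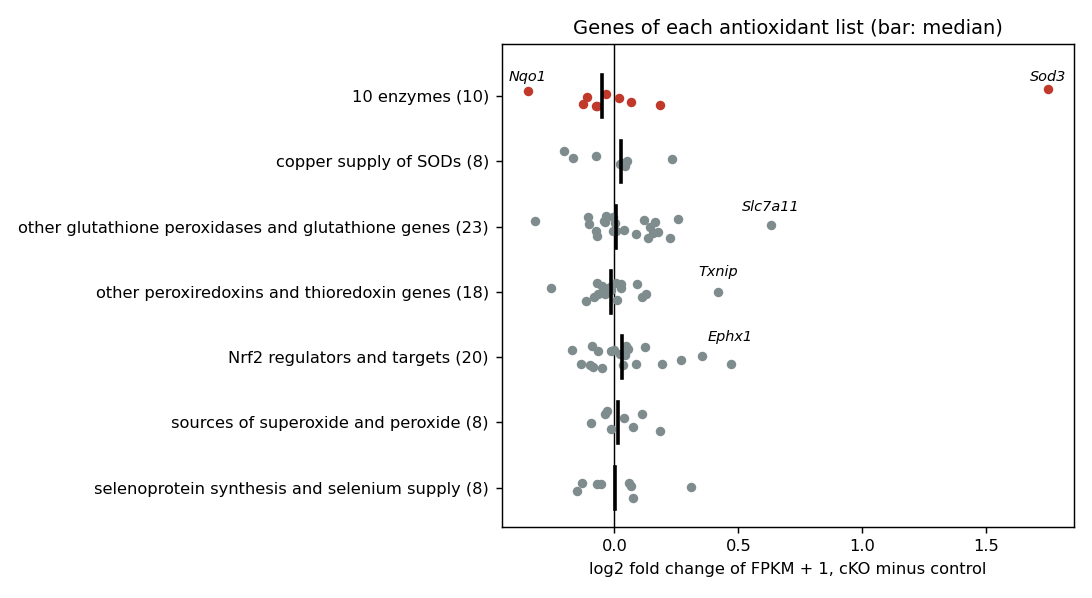
Log2 fold change of FPKM + 1 (horizontal axis, cKO minus control) of each tested gene in the 6 antioxidant lists, with the 10 enzymes in the top row. Points are genes, black bars are list medians, the number of genes stands in brackets, and names mark Nqo1 and genes beyond 0.4 in either direction. Sod3 at 1.75 lies farther from 0 than any of the 85 other genes, the next being Slc7a11 at 0.63.

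The tested genes around Sod3 on chromosome 5 differed much less between the groups than Sod3. The next tested protein-coding gene above Sod3 in coordinates was Ccdc149, on the minus strand, with its 3′ end 3.23 kb away. It was at 6.27 ± 0.285 FPKM in cKO and 6.11 ± 0.532 FPKM in controls (SD, n = 3 each). Of the 3 nearest tested protein-coding genes on each side, none passed limma over all loci. Ppargc1a and Dhx15 had groups that did not overlap, as had 23.9% of all tested loci. Ppargc1a, a coactivator of mitochondrial genes that lies 796 kb below Sod3, was at 11.6 ± 1.23 FPKM in cKO and 9.57 ± 0.290 FPKM in controls without overlap (log2 fold change 0.25, adjusted p = 0.184). Dhx15, at 173 kb below, was at 58.9 ± 4.16 FPKM in cKO and 65.9 ± 1.74 FPKM in controls, lower in all cKO libraries (log2 fold change -0.16, adjusted p = 0.254). Gpr125, Lgi2 and Sepsecs had log2 fold changes of -0.08, 0.07 and -0.05.

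The loci whose pattern over the 6 libraries was most like that of Sod3 were Rasd2, Psd, Pitpnm1, Gbx2 and Tecpr1, with Pearson r of 0.999, 0.997, 0.997, 0.991 and 0.990 in log2(FPKM + 1). As the libraries fall into 2 groups that Sod3 separates, 445 of the loci outside X and Y and not of small RNAs had an r over 0.9, so these r describe the libraries only. Gbx2, which encodes a homeobox factor of the early hindbrain, was at 19.3, 17.7 and 15.8 FPKM in cKO 1 to 3 and at 6.49, 7.74 and 9.02 FPKM in controls 1 to 3. As with Sod3, control 3 was the highest control and cKO 3 the lowest cKO library. Gbx2 was picked by its likeness to Sod3 over these same libraries, so nothing is read from that order. The ratios of the means (cKO over control) were 2.27 for Gbx2 and 1.48 for Rasd2, and 1.13 to 1.18 for Psd, Pitpnm1 and Tecpr1, all smaller than the 4.03 of Sod3.

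Markers of vessel, blood and meningeal cells were measured beside Sod3, since whole cerebellum holds these cells, and in bulk RNA fewer cells of a type and less RNA per cell cannot be told apart. The 10 microglia and macrophage markers summed to 70.7 to 78.5 FPKM in cKO and 56.8 to 59.5 FPKM in controls, and 1 of 9 tested, Csf1r, passed limma as higher in cKO (6.13 ± 0.490 FPKM in cKO and 4.10 ± 0.0642 FPKM in controls, adjusted p = 0.0483), while 8 of 9 were higher at an unadjusted p under 0.05 (0.242% and 7.82% of all loci were higher by these rules). The 9 endothelial markers summed to 105.8 to 106.0 FPKM in cKO and 76.8 to 96.05 FPKM in controls, with 0 of 9 past the limma threshold and 2 higher at unadjusted p under 0.05, beside the same shares, and Mfsd2a, a lipid transporter of the blood-brain barrier, differed most (27.9 ± 2.61 FPKM in cKO and 15.5 ± 3.77 FPKM in controls, adjusted p = 0.0788 by limma). These sums did not overlap between the groups. All cKO libraries lay above all controls in 8 of 9 tested microglia and macrophage markers and in 2 of the 9 endothelial markers. The share over all tested loci was 10.3%, and the median log2 fold changes of the lists were 0.28 and 0.15. Once the fit excluded small-RNA loci, 4 microglia and macrophage markers (Csf1r, C1qa, C1qb and C1qc) passed limma as higher in cKO. In the same fit 1 endothelial marker, Mfsd2a, passed as higher, beside 0.957% of all loci. Mfsd2a alone made up much of the difference in the endothelial sum. The part of these cells in the Sod3 difference was not tested. The 9 pericyte and smooth muscle markers summed to 45.7 to 53.0 FPKM in cKO and 47.0 to 49.0 FPKM in controls. The smooth muscle genes Acta2, Myh11 and Cnn1 stayed under 1 FPKM in every library. The other 6 of that list, with the smooth muscle gene Tagln among them, passed the filter. Of these 6, 5 had positive log2 fold changes and 1 a negative one (median 0.12). None passed limma, and 1 was higher at an unadjusted p under 0.05, beside 7.82% of all tested loci. In 1 all cKO libraries lay higher and in 1 lower, beside 10.3% and 13.6% of all tested loci. The part of pericytes and smooth muscle cells in the Sod3 difference was not tested. The 10 meningeal fibroblast markers summed to 25.4 to 75.6 FPKM in cKO and 21.4 to 45.8 FPKM in controls, with the highest value in cKO 2. Of the 9 tested, 8 had positive log2 fold changes and 1 a negative one (median 0.91). None passed limma over all loci, and 2 were higher and 1 lower at an unadjusted p under 0.05. Over all tested loci, 7.82% were higher and 9.79% lower by that rule. Once the fit excluded small-RNA loci, 1 of the 9 markers, Ptgds, passed as higher (limma adjusted p = 0.0261), beside 0.957% of all loci. The part of meningeal cells in the Sod3 difference was not tested. Choroid plexus markers (7) summed to 13.9 to 36.6 FPKM in cKO and 19.1 to 27.3 FPKM in controls, and erythroid markers (9 loci) to 12.5 to 14.0 FPKM in cKO and 6.77 to 26.3 FPKM in controls. Of 4 tested erythroid loci, 3 had negative log2 fold changes (median of the 4 -0.40). The other was 1 of 2 loci named Hba-a1, listed at 0 in every control and past the limma threshold (adjusted p = 0.0177). With 0 in every control, it met the filter only through its cKO libraries, so nothing is read from its call. The second locus of that name averaged 3.77 ± 1.32 FPKM in cKO and 7.05 ± 4.02 FPKM in controls. How reads were split between such near-identical genes was not stated. No marker of these lists was at 0 in all 6 libraries. Among 8 markers of Bergmann glia and astroglia, Slc4a4 passed limma as higher and Gpr37l1 as lower in cKO (0.242% and 0.331% of all loci), with a median log2 fold change of -0.44. Of these 8, 4 (Slc1a3, Gdf10, Gpr37l1 and Aqp4) were lower and 2 (Aldoc and Slc4a4) higher in all cKO libraries. Over all tested loci these shares were 13.6% lower and 10.3% higher. Once the fit excluded small-RNA loci, Aldoc also passed limma as higher and Aqp4 as lower (0.957% and 1.51% of all loci). Slc1a3, a glutamate transporter, was at 59.7% and Gdf10 at 47.7% of the control mean. The sum of the 8 was 1983 to 2113 FPKM in cKO and 2124 to 2171 FPKM in controls, without overlap, and most of it was Fabp7 (1581 ± 29.1 FPKM in cKO and 1577 ± 49.97 FPKM in controls). The part of these genes in the differences of Sod3 and Nqo1 was not tested.

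**Figure D4:**
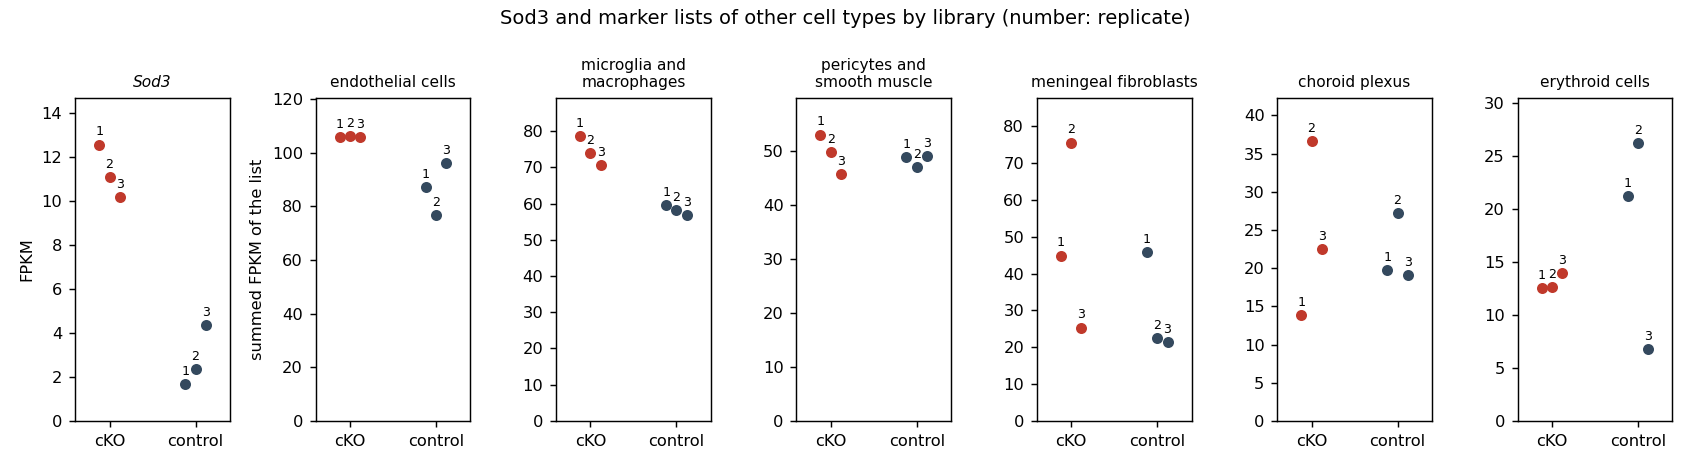
FPKM of Sod3 (left) and summed FPKM of the marker lists of other cell types (vertical axes, starting at 0) in the 3 cKO and 3 control libraries, with the replicate number beside each point. Sod3, the endothelial sum and the microglia and macrophage sum lie higher in all cKO libraries, and the sums of the other 4 lists overlap between the groups.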

How the data were processed

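The deposited table holds 1 value per locus and library, which the authors made with CASAVA, TopHat and Cufflinks on mm10, per the submitters' processing notes. These values were read as FPKM, a unit inferred from Cufflinks and from the deposited values, since no label names it. Versions, annotation, strand setting and scaling: not given in the sources used here. Libraries were grouped by title (for cKO 1 the description carries the number 3). The 13612 loci that reached 1 FPKM in 3 or more of 6 libraries were fitted as log2(FPKM + 1), which understates changes of low genes, in limma 3.58.1 (R 4.3.3) with a mean-dependent prior variance. Tests were two-sided, with Benjamini-Hochberg adjustment over all loci and a threshold of 0.05, and the code was tested on simulated data. Depth is unknown and limits low values. Positions are from GENCODE M21 (GRCm38). Python 3.11.15 was used for the rest. Members, lists and tests were chosen with earlier results of these data known. Named genes were all members, Zeb2, defining markers of other cell types, the pathway genes past the threshold or else the 3 with the smallest p per list, the 5 loci most like Sod3 and its 3 nearest tested neighbours on each side. Slc3a2, Gclc, Nfe2l2, Keap1, Atox1, Ccs, Cybb, Mfsd2a, Acta2, Myh11, Cnn1 and Tagln were named after their values were seen. So were the markers of neurons, glia and blood.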

Additional observations from a re-analysis of the deposited data

How the results depend on the processing

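The log2 fold change of Sod3 lay between 1.53 and 2.10 over 19 alternative fits, with 1 library left out between 1.53 and 2.03. The median of the other 9 members lay between -0.11 and 0.012 with 1 library left out. The log2 fold change of Nqo1 stayed negative in the 18 fits that tested it (a mean of at least 5 FPKM left it out), those of Sod1, Prdx1 and Prdx2 stayed negative and that of Hmox1 positive in all 19, while those of Sod2, Cat, Gpx1 and Gpx4 changed sign in 1 or 2 fits. Against 78 loci called at first, 15 were called with the replicate number as a block, 22 with the deposit as a covariate, 28 without a filter, 30 at a mean of at least 5 FPKM, 330 without small-RNA loci, 409 at a threshold of 0.1 and 21 to 55 with 1 library left out. Of the 85 pathway genes, 0 were called at first, 2 without small-RNA loci and 4 at a threshold of 0.1. The log2 fold change of Zeb2 was -0.77, with an adjusted p of 0.107 by limma, or 0.0445 without small-RNA loci (0.0445 to 0.312 over the alternative fits). The cause was not tested. The replicate numbers are only names: deviations of cKO and control libraries of equal number correlated at -0.027, 0.037 and 0.049, and cKO 1 correlated most with control 2. Sod3, which this contrast chose, was not called under the replicate block, with the deposit as a covariate, without a filter, at a mean of at least 5 FPKM, with a pseudocount of 0.1, with sample weights, or without any 1 library other than control 3.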
